A study of Mus musculus with 16 samples.

Results

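Trimethylation of histone H3 at lysine 27 (H3K27me3) was compared between endosteal mesenchymal stromal cells of Bap1 cKO and Bap1 WT mice, over windows of 10 kb centred on gene starts, 5 kb to each side. All autosomal genes of the deposited table were taken, 3789 of its 3925 genes, in the 4 H3K27me3 libraries of the 16 in the series. The authors mark each of these genes UP (1849) or DOWN (1940), by a comparison not given in the sources used here. Shares below are therefore of this set and cannot be read as shares of all genes of the genome. WT mice were Bap1fl/fl and cKO mice Prx1-cre;Bap1fl/fl, both on C57BL/6J, so that the control also carries the floxed alleles and differs by the absence of the recombinase. Prx1-cre is driven by a promoter active in limb mesenchyme. Each genotype had 2 libraries, precipitated with anti-trimethyl-H3K27 (Upstate) from formaldehyde-fixed, sonicated cells. Neither age nor sex is stated in the labels. Nor do they tie the libraries of a genotype to separate animals, and the p-values here therefore rest on a spread between libraries that could be technical alone. The Bap1 locus was not analysed here.

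H3K27me3 is placed by Polycomb repressive complex 2 (PRC2), whose catalytic subunit is EZH2 or EZH1, and is a mark of genes held silent, above all developmental transcription factors whose promoters are rich in CpG dinucleotides. BAP1 is the catalytic subunit of a complex that takes ubiquitin off histone H2A, erasing H2AK119ub1, a mark laid down by Polycomb repressive complex 1 (PRC1). Both complexes can bind to the mark made by the other. Endosteal mesenchymal stromal cells line the inner surface of bone, can give rise to bone and fat cells, and secrete factors on which blood-forming cells depend.

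Total counts were 1283020 and 1334508 for the WT libraries and 1618477 and 1456334 for the cKO libraries, with a median of 250 to 364 per autosomal window. Each read was counted in about 3 neighbouring bins of 50 bp, so the reads behind a value are fewer than its counts. Window counts of libraries of a genotype correlated with r = 0.920 in WT and 0.932 in cKO, across windows. Values below are CPM, the counts scaled to a common autosomal library size with TMM factors, and log2 changes are of cKO over WT with the standard error (SE) of edgeR's quasi-likelihood fit. Scaling used these windows alone and would hide any change that they all share. Of 11 genes listed as markers of mesenchymal stromal cells, 9 had between 177 and 644 CPM at the promoter in each WT library titled H3K4me3, Vim, Cxcl12 and Pdgfrb among them, and the median of all promoters was 176 and 177 CPM. The other 2, Thy1 and Ly6a, had 14.5 to 31.9 CPM there. The blood cell genes Cd34 and Lyz2 had 10.5 to 21.8 CPM, and the single endothelial gene tested, Eng, is also on the mesenchymal list.

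Since PRC2 targets are known for CpG-rich promoters, those of 6 genes on which the results turn are shown: Foxd1, Phf19 and Pax8, where H3K27me3 fell, and Eya4, Foxa1 and Tdrd7, where it rose. The sequences are RefSeq promoters on GRCm38.p6, from 250 bases before to 50 after the gene start, written 5′ to 3′ on the gene's strand, and capitals mark CG dinucleotides, which read the same on both strands. The Foxd1 promoter holds 15, that of Phf19 38, that of Pax8 7, that of Eya4 28, that of Foxa1 26 and that of Tdrd7 4. At least 1 CG is present in 94.6% of the 32851 RefSeq promoters of this length. The observed over expected CpG ratio was 0.624 in Foxd1, 0.952 in Phf19, 0.288 in Pax8, 0.918 in Eya4, 0.929 in Foxa1 and 0.234 in Tdrd7, and 35.8% of RefSeq promoters exceed 0.6. Among the windows studied here that have a matched sequence, 62.8% to 76.9% exceed 0.6 whatever their call, so ratios above it are common in this set. High and low ratios thus stood on both sides, and no comparison of base composition between groups of windows was made, as sequences matched 58.8% of lower, 66.2% of uncalled and 72.2% of higher windows.
Foxd1, chr13:98353995-98354294, plus strand: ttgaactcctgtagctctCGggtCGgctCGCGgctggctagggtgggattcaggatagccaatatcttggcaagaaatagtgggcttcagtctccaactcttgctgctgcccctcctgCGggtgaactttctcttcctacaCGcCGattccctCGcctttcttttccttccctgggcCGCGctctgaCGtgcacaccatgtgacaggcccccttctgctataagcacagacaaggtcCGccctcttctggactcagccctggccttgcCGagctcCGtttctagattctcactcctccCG
Phf19, chr2:34913927-34914226, minus strand: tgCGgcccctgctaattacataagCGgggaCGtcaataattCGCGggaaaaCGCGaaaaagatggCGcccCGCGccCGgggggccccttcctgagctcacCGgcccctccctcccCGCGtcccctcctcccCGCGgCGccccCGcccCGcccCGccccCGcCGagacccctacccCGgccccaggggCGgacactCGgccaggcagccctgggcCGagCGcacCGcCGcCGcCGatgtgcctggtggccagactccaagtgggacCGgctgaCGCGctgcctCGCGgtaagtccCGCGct
Pax8, chr2:24475550-24475849, minus strand: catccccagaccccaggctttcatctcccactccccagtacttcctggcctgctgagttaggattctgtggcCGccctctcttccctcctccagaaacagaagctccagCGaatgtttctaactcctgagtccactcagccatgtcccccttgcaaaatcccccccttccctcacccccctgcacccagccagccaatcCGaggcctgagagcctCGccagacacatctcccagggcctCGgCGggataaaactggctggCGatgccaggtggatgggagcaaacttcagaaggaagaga
Eya4, chr10:23349841-23350140, minus strand: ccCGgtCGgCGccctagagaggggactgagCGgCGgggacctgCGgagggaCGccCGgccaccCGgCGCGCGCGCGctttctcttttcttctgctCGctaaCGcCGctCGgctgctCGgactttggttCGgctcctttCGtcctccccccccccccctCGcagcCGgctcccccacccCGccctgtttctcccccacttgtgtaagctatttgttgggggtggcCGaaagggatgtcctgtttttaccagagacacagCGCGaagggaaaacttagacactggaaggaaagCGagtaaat
Foxa1, chr12:57546062-57546361, minus strand: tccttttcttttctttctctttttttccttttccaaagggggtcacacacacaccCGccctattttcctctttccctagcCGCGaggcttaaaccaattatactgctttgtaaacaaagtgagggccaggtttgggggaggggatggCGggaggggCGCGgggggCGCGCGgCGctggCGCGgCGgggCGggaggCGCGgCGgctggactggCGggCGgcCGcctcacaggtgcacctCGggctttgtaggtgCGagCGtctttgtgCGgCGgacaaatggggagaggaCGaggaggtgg
Tdrd7, chr4:45965085-45965384, plus strand: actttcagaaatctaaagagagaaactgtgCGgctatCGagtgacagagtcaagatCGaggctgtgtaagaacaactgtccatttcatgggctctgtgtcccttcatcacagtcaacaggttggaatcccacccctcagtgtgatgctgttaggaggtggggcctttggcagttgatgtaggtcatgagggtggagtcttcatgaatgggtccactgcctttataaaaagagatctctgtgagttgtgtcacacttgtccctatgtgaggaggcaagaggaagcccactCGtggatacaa

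H3K27me3 was called higher in cKO at some windows and lower at others. Of 3774 windows that passed the filter on low counts, 695 were higher in cKO (18.4%) and 740 lower (19.6%), together 38%, at a Benjamini-Hochberg adjusted p of 0.05 or less. The median change over all tested windows was -0.01 on the log2 scale. The called windows had medians of 0.78 and -0.81. With total counts in place of TMM factors the balance turned, to 813 higher and 604 lower windows. Without cKO replicate 1 421 windows were higher and 409 lower, and without cKO replicate 2 425 and 462. Losses reached further than gains: 22 windows lay below -2 and 4 above 2. The other 15 windows had too few counts to be tested. Where neighbouring windows overlap, their reads cannot be told apart, which holds for 90 of the windows called higher and 73 of those called lower.

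Whole chromosomes differed in their median change, and did so in all 4 marks. Median H3K27me3 changes by chromosome ran from -0.49 on chromosome 16 to 0.47 on chromosome 4, and across the 19 autosomes these medians correlated with those of H2AK119ub1 at r = 0.993. Each window was therefore also fitted relative to its surroundings, by subtracting the median H2AK119ub1 change of the 20 nearest genes. On that scale, called relative to neighbours below, 425 windows were higher (11.3%) and 533 lower (14.1%). Of these, 300 and 441 were also called as measured. What produced the chromosome-wide changes was not tested.

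Among the windows of lowest p, the deepest loss was at Foxd1, a forkhead transcription factor of the kidney stroma. Its window had 1662 and 1232 CPM in WT and 237 and 233 CPM in cKO, a log2 change of -2.62 ± 0.24 (SE, adjusted p = 1.4e-19). The change relative to neighbours was -2.78. Window genes of lowest p, here and below, were chosen among those whose genotypes did not overlap, so their separation adds no support. Other developmental regulators lost the mark by over 2 on the log2 scale. Pax8, a paired-box factor of thyroid and kidney, had 1169 and 815 CPM in WT and 221 and 170 CPM in cKO (log2 -2.34 ± 0.22, adjusted p = 7.41e-19). Eya2, a transcriptional coactivator with phosphatase activity, had 952 and 879 CPM in WT and 159 and 210 CPM in cKO (log2 -2.31 ± 0.22). Gsc, the homeobox factor goosecoid, had 973 and 778 CPM in WT and 213 and 161 CPM in cKO (log2 -2.22 ± 0.21). In these 3 genes both cKO libraries lay far below both WT libraries. Prdm16, a zinc-finger regulator of brown fat, had 514 and 437 CPM in WT against 86.2 and 100.3 CPM in cKO (log2 -2.35 ± 0.20, adjusted p = 1.6e-21).

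The rest of the lower windows of lowest p were of genes with other roles. Tafa5, which encodes a secreted chemokine-like protein, had 536 and 522 CPM in WT and 85.6 and 110.5 CPM in cKO (log2 -2.43 ± 0.20, adjusted p = 8e-23). Card10, a scaffold of NF-κB signalling, had 796 and 766 CPM in WT and 116.5 and 163 CPM in cKO (log2 -2.49 ± 0.21). Eif4g3, Xkr5 and Pcdh7 fell by 2.32, 2.07 and 2.18 on the log2 scale. Phf19, a Polycomb-like accessory subunit of PRC2, had 862 and 797 CPM in WT and 182 and 191 CPM in cKO (log2 -2.15 ± 0.21, adjusted p = 8.02e-18). The lower windows named here remained lower relative to neighbours, by 1.73 (Xkr5) to 2.78 (Foxd1) on the log2 scale.

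Gains of about the same size included 3 developmental regulators. Zfhx4, a zinc-finger homeobox factor, had 143.9 and 126.7 CPM in WT and 592 and 580 CPM in cKO (log2 2.12 ± 0.20, adjusted p = 7.26e-19). Eya4, of the same family as Eya2, had 240.5 and 297 CPM in WT and 1087 and 1214 CPM in cKO (log2 2.10 ± 0.23, adjusted p = 2.94e-15). Foxa1, a forkhead pioneer factor of endoderm, had 287 and 295 CPM in WT and 1041 and 1174 CPM in cKO (log2 1.93 ± 0.22, adjusted p = 1.44e-13). Eya2 and Eya4 thus moved in opposite directions.

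The other gains of lowest p started from low WT levels, as did that of Zfhx4. Pak1, a kinase activated by Rac and Cdc42, had 143.1 and 151 CPM in WT and 526 and 511 CPM in cKO (log2 1.82 ± 0.19). Tdrd7, a Tudor-domain protein of RNA granules, had 151 and 139.1 CPM in WT and 501 and 513 CPM in cKO (log2 1.81 ± 0.19). Sytl2, Layn, Mmd, Tmub1 and Tnfaip2 rose by 1.62 to 1.74 on the log2 scale. The windows of Entpd5 (1.76) and Rnf113a2 (1.67) overlap each other and count as 1 observation. Relative to neighbours the 12 gains were 1.13 (Sytl2) to 2.17 (Zfhx4), smaller than as measured for the genes on chromosomes 4, 7 and 12, whose medians rose.

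**Figure D1:**
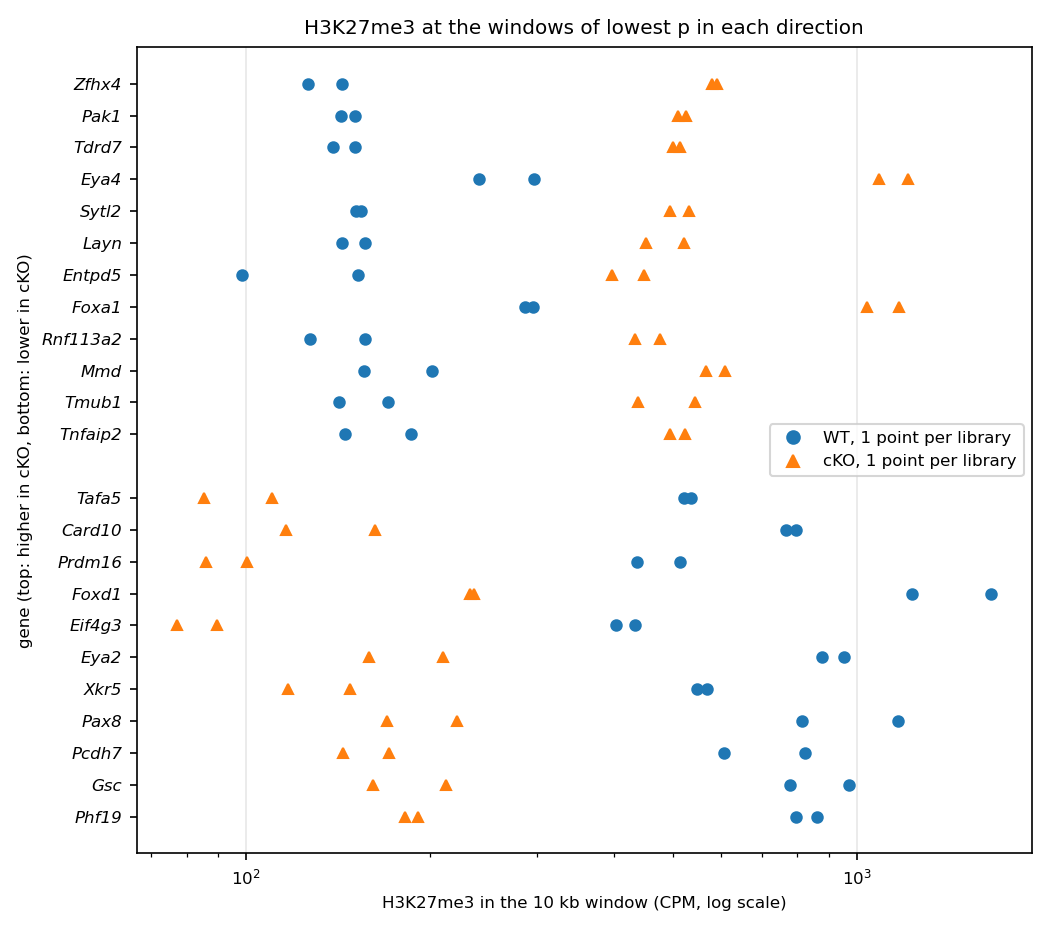
H3K27me3 in the 10 kb window (CPM, log axis) of genes of lowest p in each direction, with 1 point per library (circles WT, triangles cKO). In each gene the genotypes do not overlap, which the choice of these genes required. Foxd1 falls from 1232 or more to 237 or less, and Eya4 rises from 297 or less to 1087 or more.

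Windows that carried the most H3K27me3 were lower more often than higher. When tested windows were divided into 10 equal classes by their mean over all 4 libraries, 41 windows of the top class, with 449 to 1885 CPM, were higher in cKO and 175 lower, with a median change of -0.41. Relative to neighbours, the top class held 36 higher and 160 lower windows (median -0.39). Without cKO replicate 1 it held 29 and 99, without cKO replicate 2 27 and 125, without WT replicate 1 64 and 163, and without WT replicate 2 45 and 223. Lower calls thus outnumbered higher ones in the top class whichever library was left out. No such balance held in the lowest class, up to 137 CPM, where 43 were higher and 35 lower (median 0.17). There, 8 were higher and 7 lower relative to neighbours (median -0.05). Without WT replicate 1 the lowest class held 26 and 30, without WT replicate 2 33 and 24, without cKO replicate 1 13 and 13, and without cKO replicate 2 15 and 4. In the fifth class 74 were higher and 42 lower (median 0.05), and the median was 0.03 to 0.08 without each library in turn. The share of windows called rose from 20.6% in the lowest class to 57.1% in the top class, beside 38% of all windows, and higher counts alone make calls easier.

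**Figure D2:**
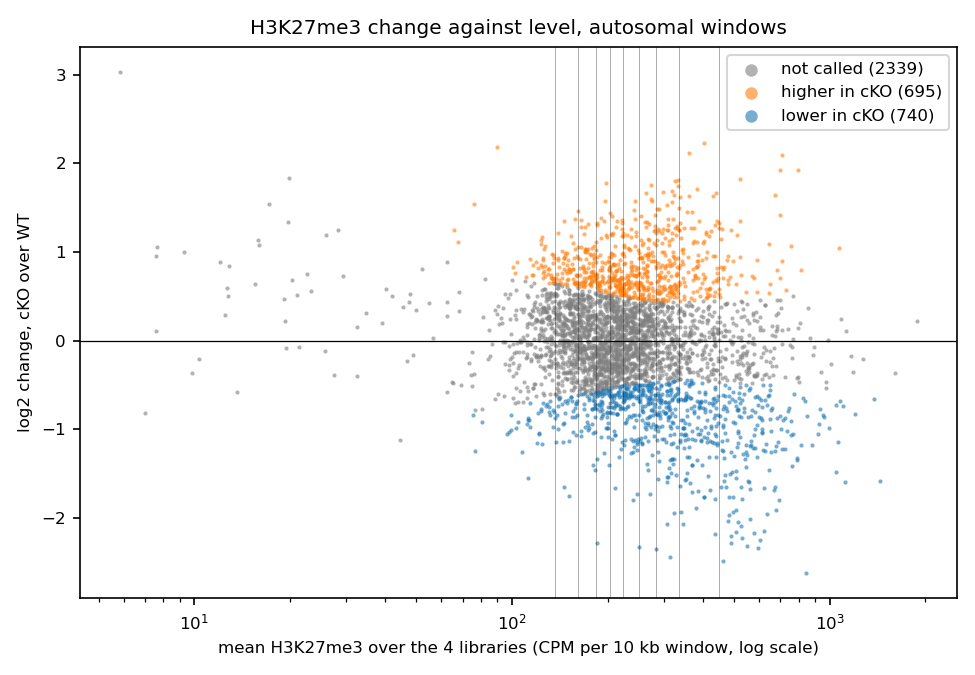
Log2 change of H3K27me3 (cKO over WT) against the mean of the 4 libraries (CPM per 10 kb window, log axis), with 1 point per tested autosomal window and thin vertical lines between the 10 level classes. Orange points are the 695 windows higher in cKO, blue points the 740 lower and grey points those not called. The lower calls extend further down and to higher levels than the higher calls extend up.

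At the promoter itself, taken as the central 4 kb, 475 of 3750 tested promoters were higher in cKO (12.7%) and 507 lower (13.5%), against 563 and 446 with total counts in place of TMM factors. Of the higher promoters 406 also had a higher window, 85.5% of those promoters and 58.4% of those windows. Of the lower promoters 472 also had a lower window, 93.1% of those promoters and 63.8% of those windows. No gene was called in opposite directions by promoter and window. Both sums share the central bins, so this overlap is partly built in. Without cKO replicate 1 251 promoters were higher and 273 lower, and without cKO replicate 2 284 and 297. Prdm16 and Card10 had the deepest promoter changes among the genes above. Their promoters changed by -3.21 ± 0.32 and -3.13 ± 0.29 on the log2 scale, against -2.35 and -2.49 over the window. The Card10 promoter kept its size but not its call without either WT library (adjusted p = 0.22 without WT replicate 1 and 0.143 without WT replicate 2).

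Whether the promoter changed by another amount than the rest of its own window was tested with an interaction of region and genotype, in which a change common to the window cancels. The promoter moved further down than its flanks in 90 of 3748 genes (2.4%) and further up in 48 (1.28%). Over all tested genes the median difference was 0.07 on the log2 scale, so promoters in general did not fall further than their flanks. Of the 90, 73 were lower over the whole window, and of the 48, 32 were higher. Without WT replicate 1 the numbers were 32 and 27, without WT replicate 2 93 and 84, and without either cKO library 38 to 47 and 11 to 18.

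Of losses centred on the promoter, that of Vldlr, a receptor of lipoproteins and reelin, had the lowest p, and in its flanks the genotypes did not overlap either. Its promoter fell from 786 and 601 CPM to 113 and 109.8 CPM, while its flanks went from 390 and 367 CPM to 182 and 214 CPM (difference of the log2 changes -1.69 ± 0.25, adjusted p = 4.39e-07). At Myh10, a non-muscle myosin heavy chain, promoter values were 521 and 492 CPM in WT and 114.7 and 158 CPM in cKO, and flank values 359 and 257 CPM against 238 and 306 CPM (difference -1.74 ± 0.26). In the flanks of Myh10 the genotypes overlapped. At Sh3rf3 the promoter fell from 355 and 357 CPM to 83.1 and 88.8 CPM, while the flanks overlapped, with 238 and 172 CPM in WT and 155 and 241 CPM in cKO (difference -1.99 ± 0.31). Mpp2 differed by -1.46 ± 0.25. At Phf19 the promoter fell from 533 and 500 CPM to 67.4 and 59.0 CPM and the flanks from 328 and 298 CPM to 114.7 and 132.2 CPM (difference -1.68 ± 0.29, adjusted p = 2.08e-05).

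Gain centred on the promoter was seen at Plcd3, a phospholipase C. Its promoter rose from 44.8 and 76.9 CPM to 342 and 275 CPM, while its flanks had 127.6 and 137.5 CPM in WT and 153 and 168 CPM in cKO (difference 2.08 ± 0.36, adjusted p = 2.08e-05). At Hoxc13, the homeobox factor of hair and nail at the 5′ end of its cluster, the promoter rose from 77.6 and 118.1 CPM to 637 and 568 CPM and the flanks from 219 and 244 CPM to 674 and 632 CPM (difference 1.14 ± 0.23, adjusted p = 5.71e-04). Enpp3 and Phf21b differed by 1.55 ± 0.32 and 1.18 ± 0.25. Ltbp4, a binding protein of latent TGF-β, differed by 1.39 ± 0.29 with no call over its window (log2 0.41, adjusted p = 0.0938). Dctn3 (1.62 ± 0.31) shares its window with another gene. The calls of Enpp3, Ltbp4 and Phf21b were each lost without 1 library (adjusted p = 0.0637 without cKO replicate 2, 0.0867 without cKO replicate 1 and 0.143 without WT replicate 1). With a promoter of 1 kb to each side, Dctn3, Enpp3 and Ltbp4 also lost theirs (adjusted p = 0.183, 0.0664 and 0.168).

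The sides of the gene start also differed. The 5 kb downstream of the start held 49.8% ± 0.345 (SD, n = 2) of H3K27me3 counts in WT and 47.2% ± 0.257 in cKO, and the genotypes did not overlap (exact permutation test, two-sided, p = 0.333, the smallest that 2 against 2 libraries can give). The share of the central 4 kb was 44.1% and 43.0% for the WT libraries against 43.3% and 42.3% for the cKO libraries, which overlapped (exact permutation p = 0.667). By gene, the downstream side moved further down than the upstream side in 125 of 3744 genes (3.34%) and further up in 47 (1.26%). The median difference between the sides was -0.10 on the log2 scale over all tested genes. Without cKO replicate 1 these were 71 and 23 genes, and without cKO replicate 2 60 and 13.

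At Irx1, an Iroquois homeobox factor of limb and other patterning, H3K27me3 changed unequally on the sides of the start. The downstream side had 448 and 365 CPM in WT and 67.4 and 56.9 CPM in cKO, and the upstream side 243 and 163 CPM in WT and 233 and 272 CPM in cKO (difference -3.04 ± 0.33, adjusted p = 1.14e-09). On the upstream side the genotypes overlapped. Marchf9, a membrane-bound ubiquitin ligase, went from 588 and 527 CPM downstream to 160 and 186 CPM, and from 221 and 203 CPM upstream to 296 and 324 CPM (difference -2.24 ± 0.27, adjusted p = 2.02e-08). On each of its sides the genotypes did not overlap, with cKO lower downstream and higher upstream. Sema3f, a secreted guidance cue, Cdh11, a cadherin of mesenchyme and osteoblasts, and the forkhead factor Foxf1 differed by -2.30 ± 0.33, -2.13 ± 0.33 and -1.47 ± 0.18.

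Downstream gains were found at Eya4, where the downstream side rose from 109.5 and 95.6 CPM to 739 and 840 CPM and the upstream side from 131 and 201 CPM to 348 and 374 CPM (difference 1.80 ± 0.27, adjusted p = 3.63e-06). Foxa1 rose downstream from 77.6 and 53.6 CPM to 498 and 583 CPM and upstream from 209 and 242 CPM to 543 and 591 CPM (difference 1.72 ± 0.27). Maf, a leucine-zipper transcription factor, had 85.3 and 92.5 CPM downstream in WT and 498 and 435 CPM in cKO (difference 1.88 ± 0.31). The genotypes did not overlap there. Trpc1, a cation channel, differed by 1.41 ± 0.27 with no call over its window (log2 0.29, adjusted p = 0.303), and its call was lost without WT replicate 1 (adjusted p = 0.057). Kazald1 differed by 1.78 ± 0.34, a call lost without cKO replicate 1 (adjusted p = 0.0626). Tle1, a corepressor of the Groucho family whose window overlaps another, differed by 1.96 ± 0.38, in part through a loss upstream. Its upstream side went from 333 and 197 CPM in WT to 138 and 135 CPM in cKO. Its downstream side went from 55.2 and 42.0 CPM to 89.8 and 109.8 CPM.

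**Figure D3:**
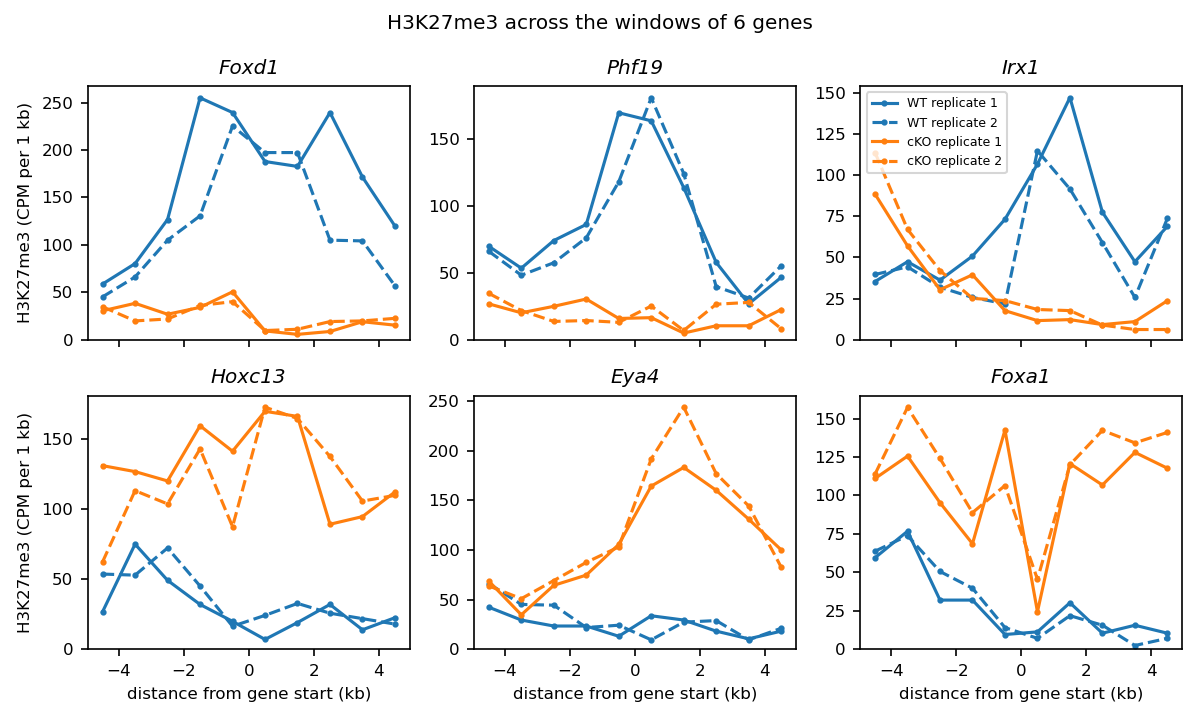
H3K27me3 per 1 kb (CPM) against distance from the gene start (kb, gene orientation) at 6 genes, with 1 line per library (blue WT, orange cKO, solid replicate 1, dashed replicate 2). Foxd1 and Phf19 lose the mark across the centre, Irx1 downstream of the start, while Hoxc13, Eya4 and Foxa1 gain it.

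In stretches of 2 kb, gains and losses were unevenly placed. From 3 to 1 kb upstream 234 genes were higher (6.29%) and 149 lower (4.01%), whereas within 1 kb of the start 239 were higher (6.42%) and 387 lower (10.4%). From 1 to 3 kb downstream 179 were higher (4.81%) and 292 lower (7.85%). The outermost stretches gave 93 higher (2.51%) and 71 lower (1.92%) upstream and 33 higher (0.888%) and 78 lower (2.1%) downstream. The stretch from 3 to 1 kb upstream held 20.2% ± 0.297 (SD, n = 2) of counts in WT and 22.3% ± 0.220 in cKO, and the stretch within 1 kb of the start 22.3% ± 0.486 and 20.8% ± 0.675. In neither did the genotypes overlap (exact permutation p = 0.333 each). Counts of called stretches depended on the library left out. All of them fell without either cKO library, whereas without a WT library some rose and some fell. Within 1 kb of the start 7 to 9 genes were higher and 20 lower without either cKO library, and from 3 to 1 kb upstream 90 to 92 were higher and 43 to 44 lower. From 1 to 3 kb downstream, 105 were higher without cKO replicate 1, 97 higher without cKO replicate 2 and 179 lower without WT replicate 1. The outermost downstream stretch ranged from 17 higher and 46 lower without cKO replicate 1 to 99 and 145 without WT replicate 2. The outermost upstream stretch gave 7 higher and 5 lower without cKO replicate 1, 11 and 5 without cKO replicate 2, 144 higher without WT replicate 1, and 141 higher and 133 lower without WT replicate 2.

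**Figure D4:**
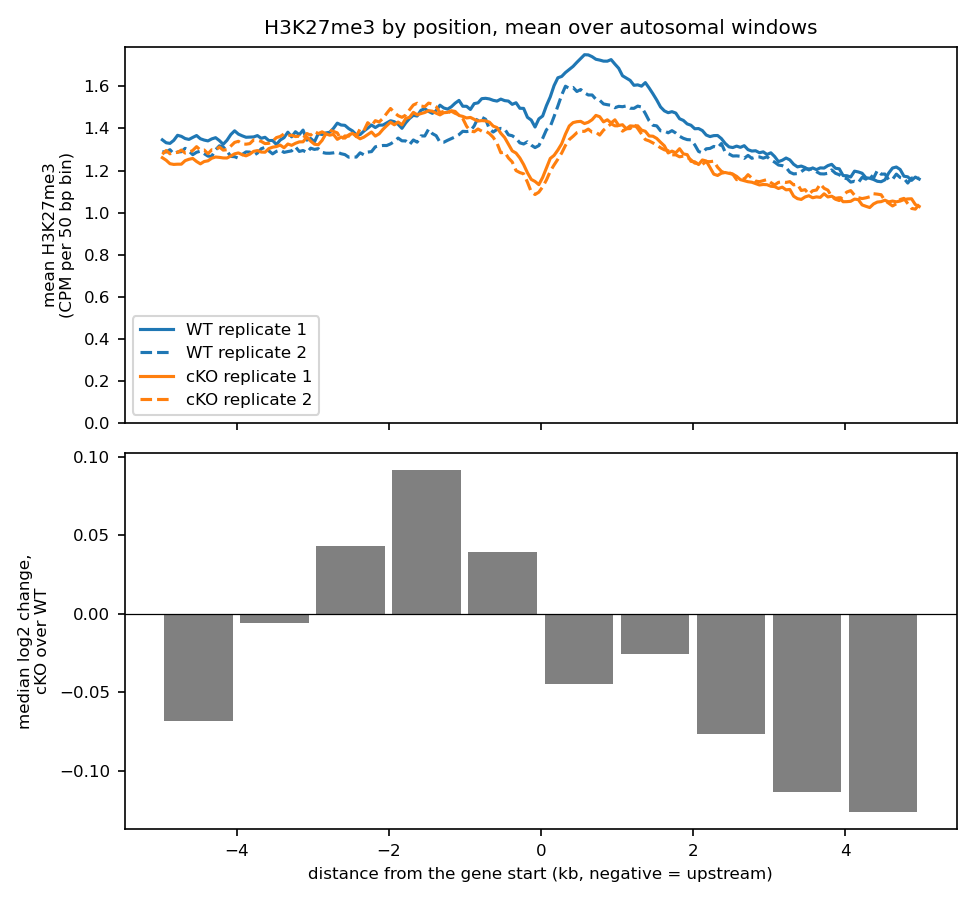
Top, mean H3K27me3 per 50 bp bin (CPM) over autosomal windows against distance from the gene start, with 1 line per library. Bottom, median log2 change (cKO over WT) of the genes tested in each 1 kb stretch, between -0.13 at 4 to 5 kb downstream and 0.09 at 1 to 2 kb upstream. Downstream of the start both cKO lines lie below both WT lines.

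Genes of the tissue were read through lists of known members, each set beside the 18.4% higher and 19.6% lower over all windows. Of 22 developmental transcription factors tested, 11 were lower and 6 higher, with a median of -0.40 against -0.01 over all windows. Foxd1, Pax8, Eya2, Gsc and Prdm16 were among the lower ones, and Eya4 and Foxa1 among the higher ones. All of these but Prdm16 lay in the top level class, where 175 of 378 windows were lower and 41 higher (median -0.41). The list was not compared with windows of like level, so its lower calls cannot be called particular to it. Of 6 Hox genes on the table, 3 were higher and 1 lower (median 0.49). Hoxc13 had 297 and 362 CPM in WT and 1311 and 1201 CPM in cKO (log2 1.93 ± 0.23), and Hoxc11 311 and 338 CPM against 1012 and 1024 CPM (log2 1.65 ± 0.22). Hoxc10 rose by less (0.62 ± 0.20), and its call was lost without WT replicate 1 (adjusted p = 0.075) and without cKO replicate 2 (adjusted p = 0.167). Hoxc6, further toward the other end of the cluster, was lower (-0.67 ± 0.21) with 230 and 324 CPM in WT and 170 and 178 CPM in cKO. Its call was lost without WT replicate 2 (adjusted p = 0.239), without cKO replicate 1 (0.0906), without cKO replicate 2 (0.0567) and relative to neighbours (0.206).

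Of 11 osteoblast genes, 5 were higher and 0 lower (median 0.45) by edgeR, 6 and 0 by DESeq2, and 6 and 1 at an unadjusted p under 0.05. Over all windows, 1735 of 3774 had an unadjusted p under 0.05 in either direction. Relative to neighbours 7 were higher, beside 11.3% of all windows. Without each library in turn 4 to 6 were higher and 0 lower. Col1a1, the main collagen chain of bone, had 148.3 and 189.6 CPM in WT and 391 and 422 CPM in cKO (log2 1.27 ± 0.19, adjusted p = 9.71e-09), and 0.81 relative to neighbours. Wnt10b, a ligand that favours bone over fat, had 203 and 209.8 CPM in WT and 379 and 424 CPM in cKO (log2 0.96 ± 0.19). Msx2, a homeobox factor of osteoblasts, Spp1, which encodes osteopontin, and Smpd3, a neutral sphingomyelinase of bone mineralisation, rose by 0.78 ± 0.19, 0.75 ± 0.20 and 0.73 ± 0.21. Spp1 lost its call without cKO replicate 1 (adjusted p = 0.0622) and Smpd3 without cKO replicate 2 (adjusted p = 0.169).

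Of 14 adipocyte genes 2 were higher and 2 lower (median -0.03), and 4 and 2 with total counts in place of TMM factors. Pparg, the nuclear receptor that drives fat cell formation, had 232 and 205 CPM in WT and 539 and 573 CPM in cKO (log2 1.35 ± 0.20, adjusted p = 2.31e-09), while Prdm16 fell as given above. Klf15 fell by 1.25 on the log2 scale, from 1005 and 841 CPM to 347 and 428 CPM. Plin2, which coats lipid droplets, rose by 0.72 ± 0.29, but was at -0.051 relative to neighbours, and its call was lost without WT replicate 1, cKO replicate 1 or cKO replicate 2 (adjusted p = 0.162, 0.137 and 0.276). Of 7 cartilage and tendon genes 0 were higher and 2 lower (median -0.15) by edgeR, by DESeq2 and at an unadjusted p under 0.05, with the median at 0.18 without WT replicate 2 and 0.04 without cKO replicate 2. Comp, a matrix protein of cartilage, had 595 and 577 CPM in WT and 291 and 240 CPM in cKO (log2 -1.14 ± 0.20). Col11a1 was at -0.64 ± 0.22, a call lost without WT replicate 1, WT replicate 2 or cKO replicate 2 (adjusted p = 0.0562, 0.0679 and 0.315) and with total counts (0.0515). Sox9, the master factor of cartilage, had 256 and 255 CPM in WT and 278 and 317 CPM in cKO (log2 0.22 ± 0.19, adjusted p = 0.382).

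Of 17 genes by which stromal cells sustain blood cells, 4 were higher and 4 lower (median -0.04). These counts were close to the shares over all windows, 18.4% higher and 19.6% lower, and are not particular to the list. Without cKO replicate 1 2 were higher and 3 lower (median 0.17). Kitl, the stem cell factor on which blood stem cells depend, had 290.5 and 249 CPM in WT and 644 and 649 CPM in cKO (log2 1.26 ± 0.20, adjusted p = 5.8e-08), and 1.00 relative to neighbours. Ebf3, a transcription factor of marrow stromal cells, had 176 and 182 CPM in WT and 417 and 466 CPM in cKO (log2 1.30 ± 0.19). Thpo, which encodes thrombopoietin, had 922 and 737 CPM in WT and 199 and 203 CPM in cKO (log2 -2.05 ± 0.21, adjusted p = 1.84e-16), in a window that overlaps another. Jag1, a Notch ligand, had 813 and 615 CPM in WT and 225 and 231 CPM in cKO (log2 -1.65 ± 0.21). Bmp4 fell by 1.14 on the log2 scale, also in a shared window. Cxcl12, the chemokine that retains blood stem cells, had 455 and 319 CPM in WT and 279 and 296 CPM in cKO (log2 -0.43 ± 0.19, adjusted p = 0.0561). It passed the threshold without WT replicate 2 (adjusted p = 0.00531) and when 1 bin in 3 was counted (0.0482).

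Of 20 genes of the Wnt pathway 6 were lower and 2 higher (median -0.16), with 1 higher without WT replicate 1 or cKO replicate 1. Ror2, a Wnt5a receptor, had 671 and 608 CPM in WT and 212 and 187 CPM in cKO (log2 -1.68 ± 0.20). Tcf7, a transcription factor of the pathway, had 663 and 768 CPM in WT and 260 and 247 CPM in cKO (log2 -1.497 ± 0.205). Nkd2, an inhibitor of the pathway, and Wnt4 fell by 1.15 and 0.92 on the log2 scale. The genotypes did not overlap in any of these 4 genes. Of 5 cell cycle inhibitors and p53 targets 0 were called in either direction by edgeR, 0 by DESeq2 and 0 at an unadjusted p under 0.05. The mesenchymal marker list had 2 of 11 higher and 0 lower by edgeR and by DESeq2, and 3 and 3 at an unadjusted p under 0.05. Beside these stand 1735 of 3774 windows with an unadjusted p under 0.05, and 11.3% higher and 14.1% lower relative to neighbours. Relative to neighbours 4 were higher and 0 lower, and without WT replicate 2 1 was higher and 2 lower. The called genes were Col1a1 and Thy1, the latter at 0.63 ± 0.19, whose call was lost without WT replicate 2 (adjusted p = 0.1). Of 2 blood cell genes Cd34 was lower (-0.49 ± 0.19, adjusted p = 0.0284), though not relative to neighbours (adjusted p = 0.421), without WT replicate 1 (0.294), without cKO replicate 2 (0.473), with total counts (0.0775) or by DESeq2 (0.097). Housekeeping and endothelial lists had 1 tested gene each, not called.

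Genes of the Polycomb complexes themselves were few on the table. Of 3 PRC2 and demethylase genes, Phf19 fell and Ezh1, the PRC2 catalytic subunit of resting cells, had 233 and 315 CPM in WT and 434 and 561 CPM in cKO (log2 0.86 ± 0.20, adjusted p = 1.36e-04). Of 4 PRC1 and BAP1 complex genes 3 were higher (median 0.76). Bmi1 and Pcgf2, alternative RING-partner subunits of PRC1, rose by 1.10 ± 0.20 and 0.99 ± 0.21, and Foxk2, a forkhead partner of BAP1, by 0.52 ± 0.20. The Bmi1 window overlaps another. Relative to neighbours Bmi1 was at 1.15 (adjusted p = 7.17e-07), but Ezh1 at 0.23, Pcgf2 at 0.35 and Foxk2 at -0.12, and none of those 3 passed the threshold (adjusted p = 0.423, 0.24 and 0.733). Foxk2 also lost its call without any 1 of the 4 libraries (adjusted p = 0.0537 to 0.281) and by DESeq2 (0.0647).

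The other marks were read at the same windows, each in its own 4 libraries. For H3K4me3 and H3K27ac the titles and the antibody labels are swapped, and both marks are called by title here. As measured, H2AK119ub1 moved the same way as H3K27me3 more often than the opposite way. Over all windows 22.8% were higher and 22.4% lower in H2AK119ub1. Of the windows higher in H3K27me3, 58.3% were higher and 4.32% lower in H2AK119ub1, and of those lower in H3K27me3, 1.76% were higher and 56.6% lower. Across 3769 windows the changes in both marks correlated with r = 0.632. This value and the shares above include the chromosome-wide changes that both marks share. H2AK119ub1, which defines the scale relative to neighbours, was not counted on it. At single genes the sizes of the changes could differ: H2AK119ub1 changed by -2.12 at Tafa5, by -0.58 at Foxd1, by -0.71 at Phf19 and by -0.15 at Pax8 (adjusted p = 0.408).

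H3K4me3 and H3K27ac, marks of active promoters, were higher in 39% and 33.1% of all windows and lower in 36.7% and 32.8%. As measured, windows that lost H3K27me3 were higher in H3K4me3 in 52.2% and lower in 26.9%, and windows that gained it in 48.3% and 33.8%. For H3K27ac these shares were 38.1% and 19.3% at windows that lost H3K27me3, and 41.9% and 35.1% at windows that gained it. As measured, H3K4me3 was thus more often higher than lower at windows of either kind, and so was H3K27ac at windows that lost H3K27me3. At windows that gained it, the order for H3K27ac was not firm. With H3K27me3 called at an adjusted p of 0.01, 38.4% of them were higher and 38.7% lower in H3K27ac. The order also turned without WT replicate 1 and without cKO replicate 1. Without cKO replicate 1 17.9% of the windows that lost H3K27me3 were lower in H3K4me3. On the scale relative to neighbours, H3K4me3 was higher in 32.4% and lower in 28.4% of all windows, and H3K27ac in 24.5% and 26.8%. Windows with less H3K27me3 were then higher in H3K4me3 in 72.0% and lower in 6.38%, and higher in H3K27ac in 55.0% and lower in 2.81%. Windows with more H3K27me3 were higher in H3K4me3 in 9.65% and lower in 59.5%, and higher in H3K27ac in 4% and lower in 62.8%. At Foxd1 H3K4me3 rose by 3.79 and H3K27ac by 3.05 on the log2 scale, and at Hoxc13 they fell by 3.42 and 2.28. Tafa5 was an exception, where H3K4me3 fell by 1.28 and H3K27ac by 0.69 together with H3K27me3. At Irx1, where H3K27me3 fell downstream of the start, H3K4me3 rose by 4.49 over the window. The authors' table marks each gene UP or DOWN by a comparison not given in the sources used here. Of all tested windows 1841 were marked UP and 1933 DOWN. Of the windows lower in H3K27me3 as measured 511 were marked UP and 229 DOWN, and of those higher 308 and 387. Relative to neighbours the lower windows had 450 UP and 83 DOWN, and the higher ones 55 and 370. Since the libraries behind the authors' label are not known here, these numbers are not taken as independent evidence.

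By chromosome, 43.7% of windows on chromosome 4 were higher in H3K27me3, 35.5% on chromosome 11 and 33.2% on chromosome 7, beside 18.4% of all windows. Lower windows made up 45.0% on chromosome 16, 43.2% on chromosome 18 and 39.8% on chromosome 15, beside 19.6% of all windows. The chromosome medians of H3K4me3 and H3K27ac correlated with those of H3K27me3 at r = 0.962 and 0.959, over 19 chromosomes that share their libraries within each mark. Relative to neighbours, chromosome medians of H3K27me3 lay between -0.13 and 0.15. Windows called there were spread more evenly, with 22 higher and 45 lower on chromosome 4 and 17 higher and 18 lower on chromosome 16. That scale subtracts the H2AK119ub1 change of nearby genes, so flatter medians and a more even spread are largely built in. The deep changes named above did not all go with the median of their chromosome. Prdm16 and Eif4g3 fell on chromosome 4, where the median rose, and Hoxc13 and Hoxc11 rose on chromosome 15, where the median fell. A chromosome median need not hold for each part of its chromosome, and Prdm16 and Eif4g3 were also lower relative to neighbours.

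**Figure D5:**
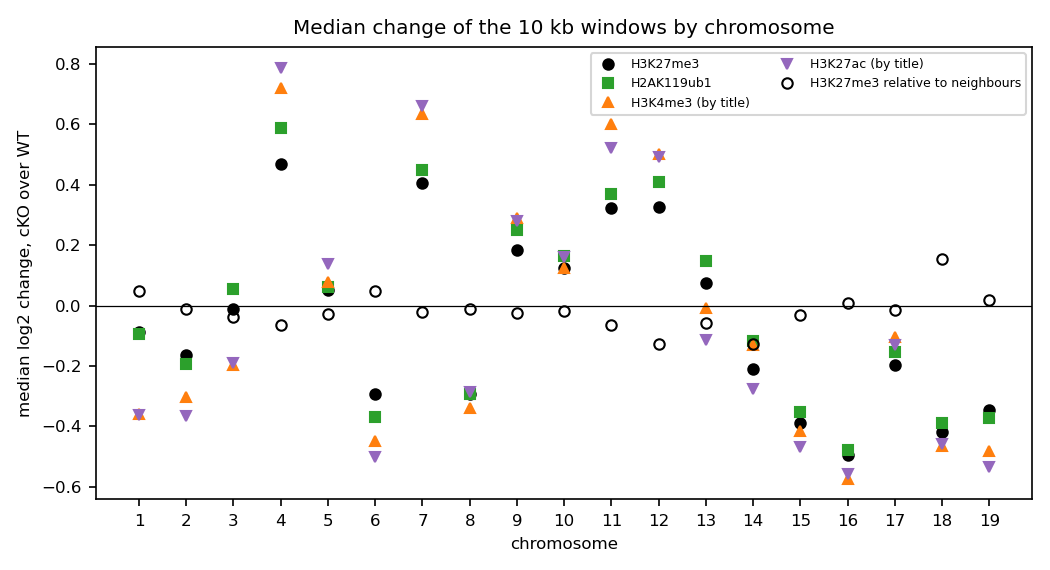
Median log2 change (cKO over WT) of the 10 kb windows of each autosome, with 1 filled symbol per mark and open circles for H3K27me3 relative to neighbours. The 4 marks follow one another from chromosome to chromosome, from 0.47 for H3K27me3 on chromosome 4 to -0.49 on chromosome 16, and the open circles stay between -0.13 and 0.15. Their narrow range is largely built in, as the H2AK119ub1 change of nearby genes was subtracted.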

How the data were processed

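Whole-number read counts in 200 bins of 50 bp per gene were deposited by the authors without normalisation, per the file headers. Per the submitters' processing notes, the tools included bedtools 2.30.0, SAMtools 1.9, Bowtie2 2.4.5, cutadapt 1.18 and Picard 2.25.5, on GRCm38. In isolated runs of bins, 98.4% of those under 6 bins were 3 bins long, so each read entered about 3 bins. Input libraries were not used here.

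Bins run in gene orientation. They were summed over each autosomal window, over bins 61 to 140 (the central 4 kb promoter), over 5 stretches of 2 kb and 10 of 1 kb, and over each side of the start. Sums were tested with edgeR's quasi-likelihood test (robust glmQLFit; edgeR 4.0.16 in R 4.3.3) on the 4 H3K27me3 libraries, genotype being the term. As library sizes, autosomal sums were taken with TMM factors from windows. Genes were kept by filterByExpr with at least 10 counts, and Benjamini-Hochberg adjustment ran over all genes tested. Promoter against flanks and downstream against upstream were tested as interactions of region and genotype in the same tool. Printed CPM used the same library sizes and factors. The steps were tested on simulated data.

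Symbols came by position from RefSeq GRCm38.p6, within 500 bp of the window's centre on its strand, and named 3294 genes (86.9%). At positions shifted by 20 kb, 3.17% found a name. Promoter sequences matched 2492 genes, 58.8% to 72.2% of each group of windows, so a check of base composition between those groups is void. Members and gene lists were chosen with earlier results of these data known. Named were the 12 genes of lowest p in each direction of the windows whose libraries did not overlap, the 6 of lowest p in each direction of both position tests (predicted, clone and receptor names left out), up to 5 called members of each list, and Cxcl12, Kitl, Pparg, Sox9, Foxd1, Hoxc13 and Phf19. Of the genes this rule takes, 2 are not reported here. Same-numbered libraries deviated with a correlation of -0.132, so replicate numbers do not pair the samples. Alternatives were other scalings, no filter, 1 bin in 3, DESeq2 1.42.0, each library left out, the replicate block, the regional offset and other promoter widths. Leaving out overlapping windows, the crossed block and the regional offset in other marks were chosen after seeing the data.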

Additional observations from a re-analysis of the deposited data

How the results depend on the processing

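Without each library in turn, 421 to 611 windows were higher and 409 to 704 lower, and 251 to 459 promoters higher and 273 to 548 lower, the fewest without cKO replicate 1 and the most without WT replicate 2. The promoter exceeded its flanks in 11 to 84 genes and fell short in 32 to 93, and the downstream side exceeded the upstream in 13 to 65 and fell short in 60 to 131. From upstream to downstream, the 5 stretches had 7 to 144, 90 to 269, 7 to 289, 97 to 184 and 17 to 99 genes higher, and 5 to 133, 43 to 184, 20 to 431, 179 to 261 and 46 to 145 lower. These fits use 3 libraries. H2AK119ub1 was then higher in 52.3% to 60.2% of windows higher in H3K27me3, and higher in 0.734% to 1.85% and lower in 59.1% to 62.1% of those lower. H3K4me3 was higher in 43.9% to 47.3% and lower in 34.4% to 38.0% of windows higher in H3K27me3, and higher in 53.1% to 63.6% and lower in 17.9% to 26.4% of those lower. H3K27ac was higher in 34.4% to 39.3% and lower in 37.8% to 40.1%, and higher in 38.9% to 48.2% and lower in 13.4% to 19.7%.

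With the regional offset 425 windows were higher, stretches 1, 2 and 5 gave 35, 139 and 17 higher and 29, 93 and 46 lower, and Plin2, Foxk2 and Sox9 reversed to -0.051, -0.12 and -0.36, none past the threshold. With the offset in both marks, windows higher in H3K27me3 were higher in H3K4me3 in 9.65% and lower in 59.5%, and in H3K27ac in 4% and 62.8%. Windows lower were higher in H3K4me3 in 72.0% and lower in 6.38%, and in H3K27ac in 55.0% and 2.81%. With H3K27me3 called at an adjusted p of 0.01, its lower windows were lower in H2AK119ub1 in 62.8%, higher and lower in H3K4me3 in 58.9% and 20.9%, and in H3K27ac in 42.0% and 16.3%. A promoter of 1 kb to each side gave 239 higher promoters, and 11 above and 37 below their flanks. Without the central 2 kb, 25 downstream sides exceeded the upstream. Stretch 5 gave 50 higher and 133 lower with 1 bin in 3, and 53 and 142 with DESeq2. The Sox9 promoter, not called, turned from -0.037 to 0.048 with total counts and 0.52 at 1 kb, and was at -0.49 to 0.35 without each library. The causes were not tested.

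The replicate block gave 664 higher and 703 lower windows and 443 and 474 promoters, and 50 and 25 genes in stretch 2. With the cKO numbers crossed, 685 and 731 windows and 472 and 499 promoters were called. At this depth the median SE was 0.22 for windows, 0.34 for promoters, 0.41 and 0.42 for the interaction tests and 0.42 to 0.49 for stretches of 2 kb.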

Other observations

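On the X chromosome, which enters no comparison above, the median H3K27me3 change of 134 genes was -1.44 on the log2 scale with the autosomal scaling. The labels do not give the sex of the mice, and a cause was not tested.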
